A study of Mus musculus with 6 samples.

Results

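The genes described here are 32 genes of DNA replication and S phase, a named list followed through 1 comparison of 6 arrays. They were taken out of 19938 genes that the array measured with a probe set naming exactly 1 gene, and all 32 had such a probe set. The cells were BCR-ABL1-transformed pre-B cells of mice of 5 weeks on a mixed 129SvEv x C57BL/6J background, a model of Philadelphia chromosome-positive acute lymphoblastic leukaemia. Every sample was Sox4 fl/fl, so the controls too carried floxed Sox4, which encodes a transcription factor of early B-cell development. The control group (n = 3) had received ERT2, a ligand-binding domain derived from the oestrogen receptor, and the deletion group (n = 3) had received Cre-ERT2, a recombinase that 4OHT (4-hydroxytamoxifen) activates. RNA was taken 24 h after induction with 4OHT, and the comparison addresses what differs once deletion of Sox4 has been induced. No sample combines Cre-ERT2 with unfloxed Sox4, so the effects of Cre activity and of Sox4 loss cannot be told apart. Nothing in the labels ties the replicates to separate cultures or mice, so the p-values cover a spread between samples that may be technical.

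DNA is copied once per cell cycle. In G1 the origin recognition complex, Cdc6 and Cdt1 load the ring of MCM proteins onto origins, and in S phase Cdc45 and the GINS complex turn that ring into the active helicase. Polymerases, the sliding clamp and its loader then copy the strands, while ribonucleotide reductase, thymidylate synthase and thymidine kinase supply the building blocks and CAF-1 places histones on the new DNA. Many of these genes are transcribed by E2F factors, which the retinoblastoma family holds back until cyclin D and cyclin E kinases release them. BCR-ABL1 drives continuous division of pre-B cells, and cycling cells express these genes.

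Values are intensities of an array, 1 per probe set, and differences are Cre-ERT2 minus ERT2 on the scale of log2(intensity + 1). Errors of differences are limma's moderated standard errors (SE), adjusted p-values are limma's after the Benjamini-Hochberg method across 35556 probe sets, and a gene is called when its adjusted p is under 0.05. The median probe set of an array read 273 to 279, and every one of the 32 genes read 1096 or more on every array. The number of arrays limits the precision. Sox4 read 1459, 1372 and 1237 in the controls and 599, 541 and 499 in the Cre-ERT2 samples (difference -1.31, SE 0.0912, limma adjusted p = 0.000434). The mean intensity of Sox4 in Cre-ERT2 was thus 40.3% of that in ERT2, and the source of the remaining signal was not tested. The exact two-sided permutation test of the 3 against 3 Sox4 values gave p = 0.1, the smallest it allows. Of 12 pre-B markers 11 were measured, with intensities from 646 to 19083. Their summed intensity was 89445 to 89797 in the controls and 83388 to 85136 in the Cre-ERT2 samples, with Il7r (difference -0.93) and Rag1 (-0.89) called lower and Vpreb2 (0.49) called higher. The 6 T-cell markers read from 81 to 270. The 2 measured of 5 erythroid markers read from 141 to 296. Summed over 7 myeloid markers intensity was 1169 to 1252 in the controls and 1639 to 1820 in the Cre-ERT2 samples. Lyz2 was called higher (mean 351 in ERT2 and 932 in Cre-ERT2) and Itgam lower (199 and 141). Mpo, Elane, S100a8, S100a9 and Csf1r were not called, with differences from -0.07 to 0.13. The rise of the sum was thus that of Lyz2 and not of the myeloid markers as a set. Summed over 6 stromal and vascular markers intensity was 2589 to 2789 in the controls and 2961 to 3137 in the Cre-ERT2 samples. Pecam1 was called higher (mean 1084 in ERT2 and 1361 in Cre-ERT2) and made up most of that rise. Col1a1, Col1a2, Col3a1, Pdgfrb and Cdh5 were not called, with differences from -0.07 to 0.20. The marker genes named here were picked after their values were seen. The part of these shifts in the results on replication genes was not tested.

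Sequence words that E2F factors recognise were more frequent at the starts of these genes than at gene starts in general. A search of 300 bases at each gene start in RefSeq (build GRCm38.p6), from 250 before to 50 after it, covered 27 of the 32 genes. The search looked on both strands for the E2F-site words TTTCCCGC, TTTCGCGC, TTTGCCGC and TTTGGCGC, whose matches may overlap. A word was found at 11 of the 27 genes (40.7%), against 2.26% of all 32851 such windows and 2.60% of all 27025 genes with one. Of the 17492 protein-coding genes among these 3.29% held a word. The windows below show those words in capitals for a licensing factor (Cdc6), the origin-binding subunit nearest to the calling threshold (Orc1), a pair of helicase subunits with overlapping words (Mcm5 and Mcm6) and a phosphatase of the G1-S switch (Cdc25a). They are followed by the 250 bases before the start of Tyms, the 1 gene of the list that was called, which hold no such word.
Orc1, chr4:108579411-108579450, + strand: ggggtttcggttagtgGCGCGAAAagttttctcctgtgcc
Cdc6, chr11:98907997-98908036, + strand: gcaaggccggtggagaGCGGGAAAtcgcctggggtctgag
Mcm5, chr8:75109340-75109379, + strand: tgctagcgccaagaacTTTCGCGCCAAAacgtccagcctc
Mcm6, chr1:128359792-128359831, - strand: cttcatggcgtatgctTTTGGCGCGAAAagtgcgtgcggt
Cdc25a, chr9:109875496-109875535, + strand: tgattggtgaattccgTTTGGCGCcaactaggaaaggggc
Tyms, chr5:30073626-30073875, - strand: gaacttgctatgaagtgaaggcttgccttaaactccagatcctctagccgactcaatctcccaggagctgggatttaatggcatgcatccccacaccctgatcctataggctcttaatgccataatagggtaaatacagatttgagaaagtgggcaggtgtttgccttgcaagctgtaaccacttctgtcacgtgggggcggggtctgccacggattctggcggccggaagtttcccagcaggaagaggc

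Each match describes letters and not a bound site, and the absence of a match says only that these letters are not in that window. The 11 genes with a word had a median difference of 0.10, with a range from 0.02 to 0.26 and 0 called by limma. Among the 16 genes without one the median was 0.04, the range ran from -0.11 to 0.41, and 1 was called. The 5 genes that the search did not cover had a median of 0.12, from 0.10 to 0.17, with 0 called. No difference between these sets was tested. The CCAAT box, a promoter element bound by NF-Y, was found on either strand at 18 of the 27 genes (66.7%), against 42.3% of protein-coding genes, and not at Tyms.

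Of the 32 genes 1 was called higher in Cre-ERT2 cells and 0 were called lower. Across all genes 4.38% were called higher and 3.72% lower, so the share of called replication genes lay near the background. At an unadjusted p under 0.05 limma gave 7 higher and 1 lower, and over all genes 20.1% had such a p in either direction. The differences were small and mostly of one sign: 28 of the 32 were positive, where 59.3% of all genes were. Their median was 0.09, against 0.02 over all genes and 0.03 over the 10479 genes with brighter probe sets. The shares of positive differences and of separated groups were not computed for those brighter genes alone. Under cyclic loess normalization 25 of the 32 were positive, and Mcm10, Chaf1b and Cdc25a turned slightly negative. In 18 genes all 3 Cre-ERT2 arrays lay above all 3 controls, and in 1, Slbp, all lay below, whereas 17.5% and 10.8% of all genes showed these patterns. The 31 genes that were not called had differences from -0.11 to 0.26, and their 95% intervals, which are not adjusted for the number of genes, reached from -0.21 to 0.41. A change of 0.5 on the log2 scale thus lay outside the interval of each of the 31. In bulk RNA, more cells in a phase of the cycle and more RNA per cell cannot be told apart.

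**Figure D1:**
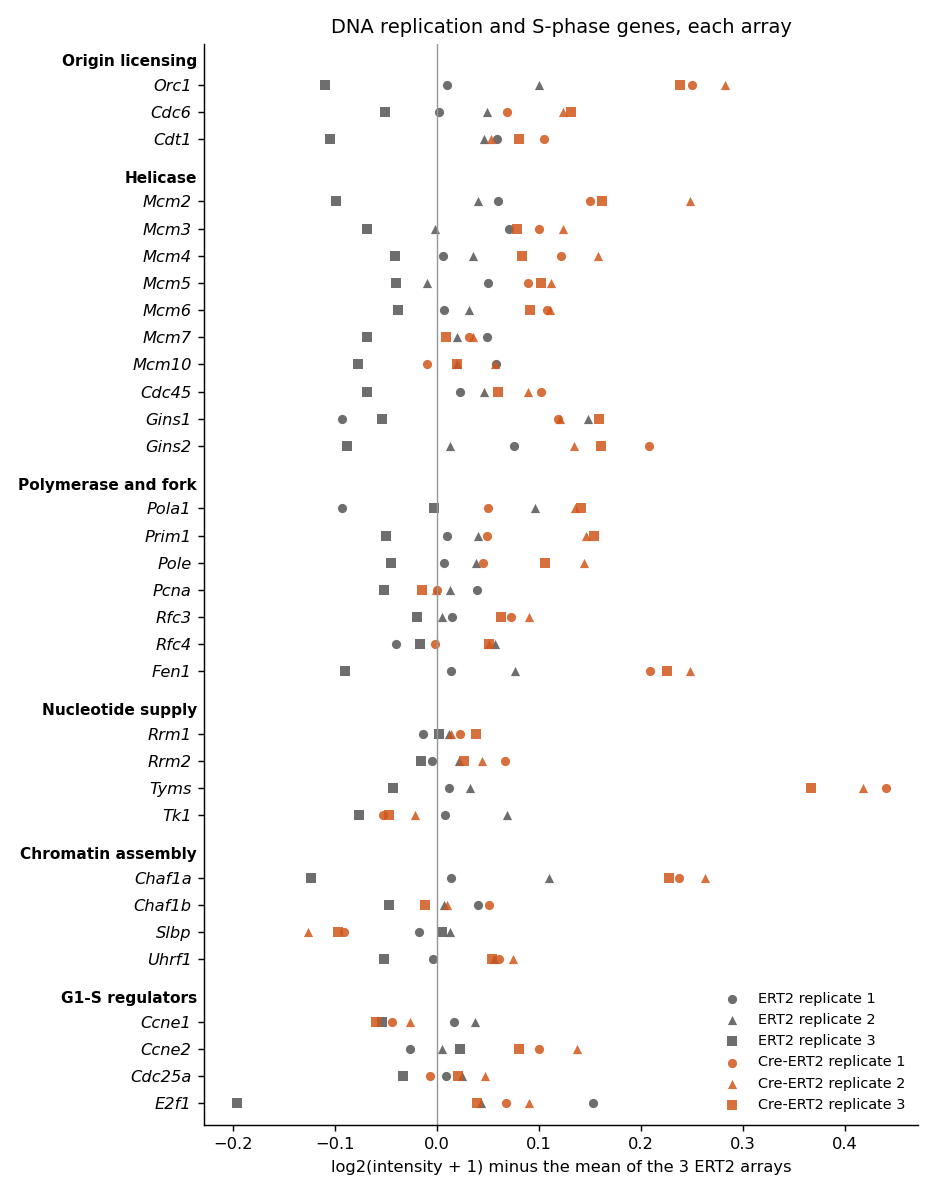
Each row is a gene and each point an array, placed by its log2(intensity + 1) minus the mean of the 3 ERT2 arrays (grey ERT2, orange Cre-ERT2, marker shape by replicate). Tyms stands apart by 0.41, most other rows have the orange points slightly to the right, and the grey square of ERT2 replicate 3 is the leftmost control in 26 of the 32 rows.

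The controls varied more among themselves than the Cre-ERT2 samples, and 1 control array lay low. The median SD of the 32 genes was 0.050 on the log2 scale in ERT2 and 0.023 in Cre-ERT2, and 27 genes had the larger SD in ERT2, as did 64.7% of all genes. ERT2 replicate 3 gave the lowest control value in 26 of the 32 genes, against 43.4% of all genes, and ERT2 replicate 2 gave the highest in 20. The median gene of the list lay 0.01, 0.04 and -0.05 from the control mean in the 3 controls in order of replicate number, and 0.07, 0.10 and 0.08 in the 3 Cre-ERT2 samples. Over all genes these medians were 0.004, 0.016 and -0.017 in the controls and 0.043, 0.011 and 0.012 in the Cre-ERT2 samples. Without ERT2 replicate 3 the list's median difference was 0.07, and 24 genes were positive, since Mcm7, Mcm10, Chaf1b and E2f1 turned slightly negative. The number with all Cre-ERT2 arrays below the remaining controls was then 4, and the number with all above them was 18. Fewer controls make such a separation easier, and the share over all genes was not computed for this setting.

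The nucleotide supply group held the 1 called gene, while the differences of its other 3 members lay between -0.04 and 0.05. Tyms, thymidylate synthase, makes the thymidine nucleotide precursor dTMP from dUMP. Its arrays read 4588, 4655 and 4416 in ERT2 and 6178, 6083 and 5872 in Cre-ERT2. The groups did not overlap, and the lowest Cre-ERT2 array was 1.26 times the highest control. The mean intensity was 4553 ± 124 (SD, n = 3) in ERT2 and 6044 ± 157 (SD, n = 3) in Cre-ERT2, a ratio of 1.33. On the log2 scale Tyms rose by 0.41 (SE 0.0486, 95% interval 0.29 to 0.53, limma adjusted p = 0.00436), and the call held in all 13 alternatives, with adjusted p from 0.000423 to 0.0266. Ranked by size, this rise was number 502 of 873 among genes called higher. A transcribed pseudogene, Tyms-ps, has a probe set of its own, which read 635, 569 and 708 in ERT2 and 771, 707 and 742 in Cre-ERT2. Its groups overlapped, and the difference of 0.22 (SE 0.0875) was not called (limma adjusted p = 0.270). Whether these probe sets cross-hybridise was not tested.

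Rrm1 and Rrm2, the large and small subunits of ribonucleotide reductase, make deoxyribonucleotides from ribonucleotides. Rrm1 read 10244, 10430 and 10354 in ERT2 and 10505, 10438 and 10619 in Cre-ERT2. Its groups lay next to each other without overlap, and the difference was 0.02 (95% interval -0.08 to 0.13, limma adjusted p = 0.866). Rrm2 differed by 0.05 (95% interval -0.06 to 0.15, adjusted p = 0.717). Tk1, the thymidine kinase of the salvage route to the same nucleotide that Tyms makes, differed by -0.04 (95% interval -0.17 to 0.09, adjusted p = 0.810), with overlapping groups. Its second probe set gave -0.02 (SE 0.0818). The enzyme of new dTMP synthesis was thus higher, while the interval of the salvage enzyme ended at 0.09. The difference between these 2 enzymes was not tested, and where the Tk1 probes lie was not examined here.

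**Figure D2:**
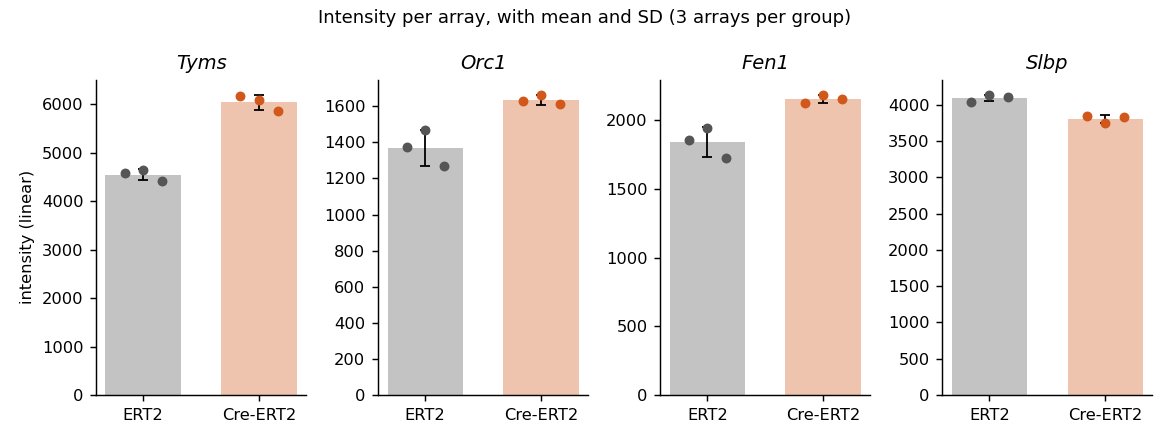
Intensity on a linear axis from 0 for Tyms, Orc1, Fen1 and Slbp. Bars are group means, whiskers SD and points the 3 arrays of each group. The Cre-ERT2 arrays lie above the controls for Tyms, Orc1 and Fen1 and below them for Slbp, and of these genes Tyms was called.

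The helicase group had a positive difference in each of its 10 genes, none of which was called. Mcm2 to Mcm7 form the ring that unwinds DNA. Mcm2 had the smallest p of the group and read 6068, 5986 and 5437 in ERT2 and 6461, 6917 and 6516 in Cre-ERT2. All its Cre-ERT2 arrays lay above the controls, with ERT2 replicate 3 well below the other controls, and the difference was 0.19 (SE 0.0623, limma adjusted p = 0.182). Mcm3, Mcm4, Mcm5 and Mcm6 had differences of 0.10, 0.12, 0.10 and 0.10, with no overlap between groups. Mcm7 read 8967, 8789 and 8263 in ERT2 and 8860, 8885 and 8722 in Cre-ERT2, and these ranges overlapped (difference 0.03, 95% interval -0.10 to 0.15). The 6 ring subunits, which act in equal numbers, thus had differences between 0.03 and 0.19, with intervals that overlap each other.

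The 4 factors that activate the ring had differences from 0.02 to 0.17. Cdc45, which joins the ring to form the working helicase, differed by 0.08 (95% interval -0.04 to 0.21). Gins1 and Gins2, subunits of the 4-part GINS complex that holds Cdc45 in place, differed by 0.13 (95% interval -0.04 to 0.31) and 0.17 (95% interval 0.03 to 0.31). Mcm10, which helps to fire the assembled helicase, differed by 0.02 (95% interval -0.11 to 0.15). For the whole group the median difference was 0.10, and 7 of 10 genes had Cre-ERT2 arrays above all controls, against 17.5% of all genes. Limma gave 3 of 10 an unadjusted p under 0.05, against 20.1% of all genes. Adjusted p-values ran from 0.182 to 0.914.

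The licensing group differed in the same direction, again without a call. Orc1, the subunit of the origin recognition complex whose level rises and falls with the cycle, read 1377, 1466 and 1267 in ERT2 and 1627, 1664 and 1614 in Cre-ERT2. The 3 Cre-ERT2 arrays lay close together above all controls, and the ratio of means was 1.19. Its difference of 0.26 (SE 0.0644, 95% interval 0.10 to 0.41) was the nearest to the threshold among the uncalled genes of the list (limma adjusted p = 0.0804). Orc1 was called among the brighter probe sets (0.0367), under cyclic loess (0.0338) and without ERT2 replicate 2 (0.0432), and its adjusted p ranged from 0.0338 to 0.242 over the 13 alternatives. Cdt1, which brings the MCM ring to origins, read 3087, 3060 and 2756 in ERT2 and 3188, 3075 and 3134 in Cre-ERT2, with overlapping groups (difference 0.08, limma adjusted p = 0.619). Cdc6, its partner in loading, differed by 0.11 (95% interval -0.01 to 0.23), and its groups did not overlap.

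The polymerase and fork group had its largest difference in Fen1 and its smallest in Pcna. Fen1, the flap endonuclease that trims Okazaki fragments on the lagging strand, read 1858, 1941 and 1728 in ERT2 and 2127, 2186 and 2152 in Cre-ERT2. Its groups did not overlap and the ratio of means was 1.17. The difference of 0.23 (SE 0.0575, 95% interval 0.09 to 0.37) was not called (limma adjusted p = 0.0837). It was called among the brighter probe sets (0.0365), under cyclic loess (0.0396) and with an intensity trend (0.0470), within a range over alternatives of 0.0365 to 0.253. Pcna, the sliding clamp that tethers polymerases and Fen1 to DNA, read 14382, 14119 and 13493 in ERT2 and 13995, 13979 and 13854 in Cre-ERT2. The Cre-ERT2 arrays lay inside the range of the controls, and the difference was -0.01 (95% interval -0.12 to 0.11). Its second probe set gave -0.02 (SE 0.0449).

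Pola1 and Prim1, the catalytic and the primase subunits of the polymerase alpha complex that lays down primers, differed by 0.11 and 0.12. Pole, the catalytic subunit of the leading-strand polymerase, differed by 0.10, and adjusted p-values of these 3 ran from 0.350 to 0.492. The clamp loader subunits Rfc3 and Rfc4 differed by 0.08 (95% interval -0.03 to 0.18) and 0.03 (95% interval -0.09 to 0.15). In this group of 7 the median was 0.10, 0 were called, and limma gave 1 an unadjusted p under 0.05 (20.1% of all genes).

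The chromatin assembly group spread most widely around 0 among the groups with no call. Chaf1a, the large subunit of the histone chaperone CAF-1, read 1398, 1495 and 1271 in ERT2 and 1633, 1662 and 1622 in Cre-ERT2. The groups did not overlap (difference 0.24, SE 0.0684, 95% interval 0.08 to 0.41), and the gene was not called (limma adjusted p = 0.116). Its partner subunit Chaf1b differed by 0.02 (95% interval -0.10 to 0.13), with overlapping groups. Uhrf1, which guides maintenance DNA methylation to new strands, read 4131, 4305 and 3996 in ERT2 and 4321, 4363 and 4299 in Cre-ERT2, so that 1 control lay above the lowest Cre-ERT2 array (difference 0.06, adjusted p = 0.629).

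Slbp, which binds the stem-loop of histone mRNA and is needed to make histones in S phase, had the lowest difference of the list. It read 4040, 4128 and 4106 in ERT2 and 3841, 3746 and 3824 in Cre-ERT2. All Cre-ERT2 arrays lay below all controls, a pattern shared by no other gene of the list, and the ratio of means was 0.930. The difference was -0.11 (95% interval -0.21 to -0.0009, limma adjusted p = 0.288). A second probe set read lower in the Cre-ERT2 mean too, by -0.06 (SE 0.0492), but its groups overlapped. Where the probes of either Slbp probe set lie was not examined here. Over this group of 4 the median was 0.04, and 0.015 without ERT2 replicate 3, and 0 were called. Limma gave 2 an unadjusted p under 0.05 (20.1% of all genes), with opposite signs.

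**Figure D3:**
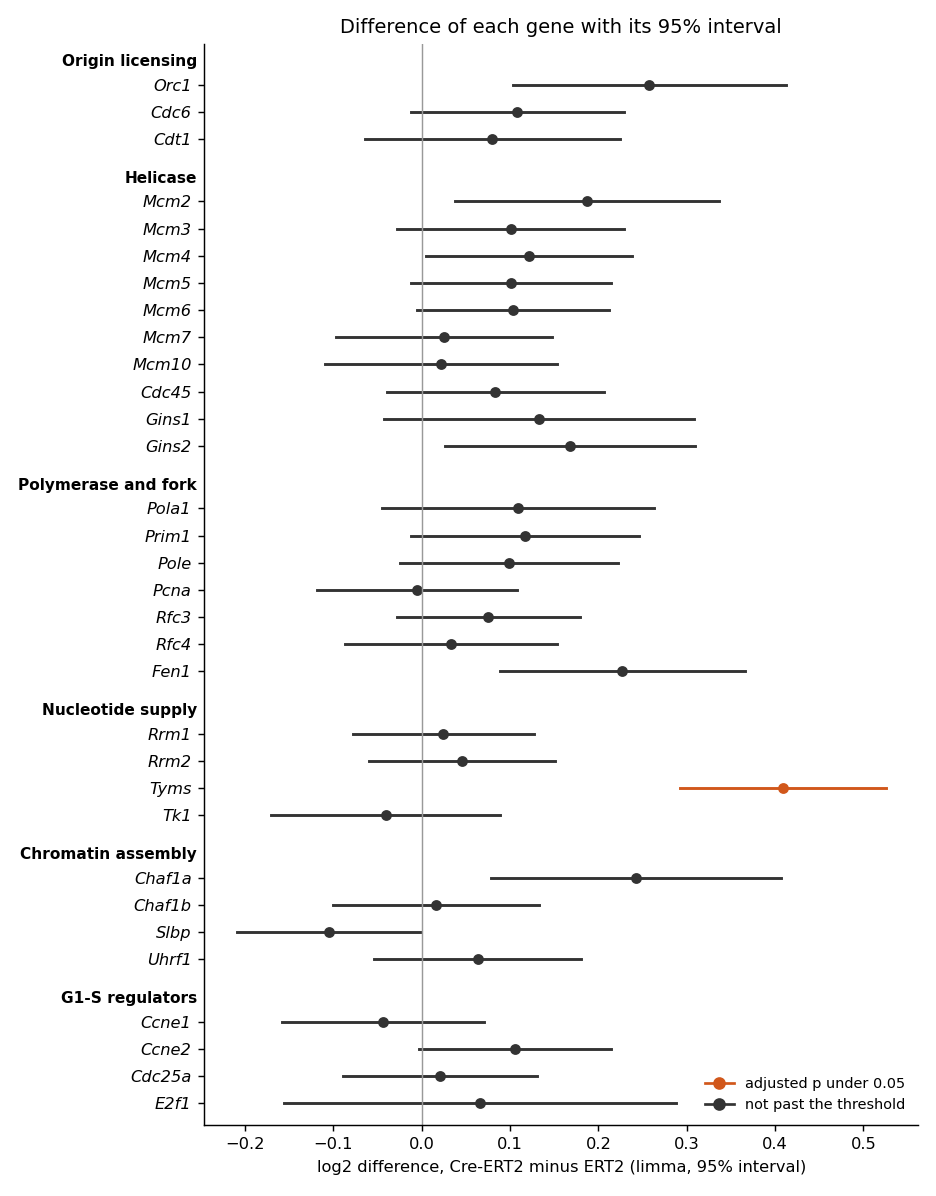
Points are log2 differences of Cre-ERT2 minus ERT2 and lines their 95% intervals from limma, ordered by role. The interval of Tyms runs from 0.29 to 0.53, and the intervals of the other 31 genes end between -0.21 and 0.41.

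The regulators of S-phase entry in the list had differences from -0.04 to 0.11, with 0 called. Ccne2, a cyclin E that activates Cdk2, had the smallest p of the 4 and read 2523, 2579 and 2611 in ERT2 and 2755, 2827 and 2718 in Cre-ERT2. The groups did not overlap, with a difference of 0.11 (95% interval -0.003 to 0.21, limma adjusted p = 0.310). Ccne1, the other cyclin E gene, differed by -0.04 (95% interval -0.16 to 0.07), with overlapping groups. Cdc25a, the phosphatase that removes the brake on Cdk2, read 4440, 4488 and 4313 in ERT2 and 4392, 4560 and 4477 in Cre-ERT2, which overlap (difference 0.02). E2f1, the transcription factor that switches on many of the genes above, had the widest interval of the list, from -0.16 to 0.29. Its controls read 1549, 1435 and 1215, and its Cre-ERT2 arrays 1460, 1483 and 1431. The group's median was 0.04, and -0.01 without ERT2 replicate 3, and limma called 0 of 4, with 0 at an unadjusted p under 0.05.

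Set beside each other, the medians were 0.11 for licensing, 0.10 for the helicase, 0.10 for polymerases and the fork, and 0.04 each for nucleotide supply, chromatin assembly and G1-S regulators. Genes with Cre-ERT2 arrays above all controls numbered 2 of 3, 7 of 10, 4 of 7, 3 of 4, 1 of 4 and 1 of 4 in that order. Over all genes 17.5% showed this pattern. Cyclic loess gave medians of 0.073, 0.083, 0.077, 0.022, 0.011 and 0.014 in the same order. Without ERT2 replicate 3 they were 0.083, 0.083, 0.076, 0.032, 0.015 and -0.014, so that only the median of G1-S regulators changed sign. The groups are small, their genes share the same 6 samples, and no difference between groups was tested.

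Of 89 further genes of the same pathway 86 were measured, with 4 called higher, 4 called lower, and a median difference of 0.06. Taken over all 86 genes these shares lay near the background of 4.38% called higher and 3.72% called lower among all genes. The calls were not spread evenly, since 6 of the 8 fell in the G1-S control list. The lists were chosen with earlier results known, and the medians of the 5 lists ran from -0.03 to 0.14 over the alternatives. In the G1-S control list 3 of 21 were called higher and 3 lower, above the background shares, and its median was -0.02. Limma gave 11 of the 21 an unadjusted p under 0.05, against 20.1% of all genes. The cyclin D1 gene Ccnd1 rose by 1.53 (SE 0.0536, limma adjusted p = 4.00e-05), from 2004, 1947 and 2094 to 5771, 6061 and 5655. Cdk6, a kinase partner of D cyclins, rose by 0.40 (SE 0.0534, limma adjusted p = 0.00679), from 6137, 6315 and 5763 to 8190, 7927 and 7915. Both have no overlap between groups and were called in all 13 alternatives.

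Tfdp2, a DP protein with which E2F factors bind DNA as pairs, fell by 0.50 (SE 0.0475, limma adjusted p = 0.00156). Its arrays read 1943, 2007 and 2008 in ERT2 and 1386, 1446 and 1370 in Cre-ERT2. E2f2, an activating E2F, fell by 0.42 (SE 0.0454, limma adjusted p = 0.00295), from 1502, 1508 and 1453 to 1136, 1107 and 1098. These falls too were called in all 13 alternatives. E2f5, a repressive E2F, fell by 0.27 (limma adjusted p = 0.0248) and Rbl2, the retinoblastoma relative p130, rose by 0.25 (limma adjusted p = 0.0326). The call of E2f5 was lost on omission of ERT2 replicate 1 or of a single Cre-ERT2 replicate, whichever it was (0.0838 to 0.122). That of Rbl2 was lost on omission of any single array (0.0648 to 0.146).

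In the further nucleotide list 0 of 13 were called higher and 1 lower, with a median of 0.04. Limma gave 6 of the 13 an unadjusted p under 0.05, against 20.1% of all genes. Rrm2b, the ribonucleotide reductase subunit used outside S phase, fell by 0.30 (limma adjusted p = 0.0285), and the call was lost on omission of any single array (0.0565 to 0.121). Of 15 further licensing and helicase genes 1 was called higher and 0 lower, with 3 at an unadjusted p under 0.05 and a median of 0.11. The called gene was Orc5, a subunit of the origin recognition complex, which rose by 0.33 (limma adjusted p = 0.0207). Omission of any array but ERT2 replicate 2 ended that call (0.0704 to 0.102). None of 24 further polymerase and fork genes was called by limma, with 5 at an unadjusted p under 0.05 (20.1% of all genes) and a median of 0.06. The smallest p-values there were those of Dna2, a nuclease-helicase of the lagging strand (difference 0.19, adjusted p = 0.0920), and Pole3, an accessory subunit of polymerase epsilon (0.17, adjusted p = 0.123). None of 13 further chromatin assembly genes was called either, with 1 at an unadjusted p under 0.05 and a median of 0.04. There Hells, a chromatin remodeller, differed by 0.17 (adjusted p = 0.167), and Npat, a coactivator of histone genes, by 0.13 (adjusted p = 0.359). In the list of 20 G2-M genes 19 were measured, of which 7 were positive and limma called 0, with 0 at an unadjusted p under 0.05 and a median of -0.02.

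**Figure D4:**
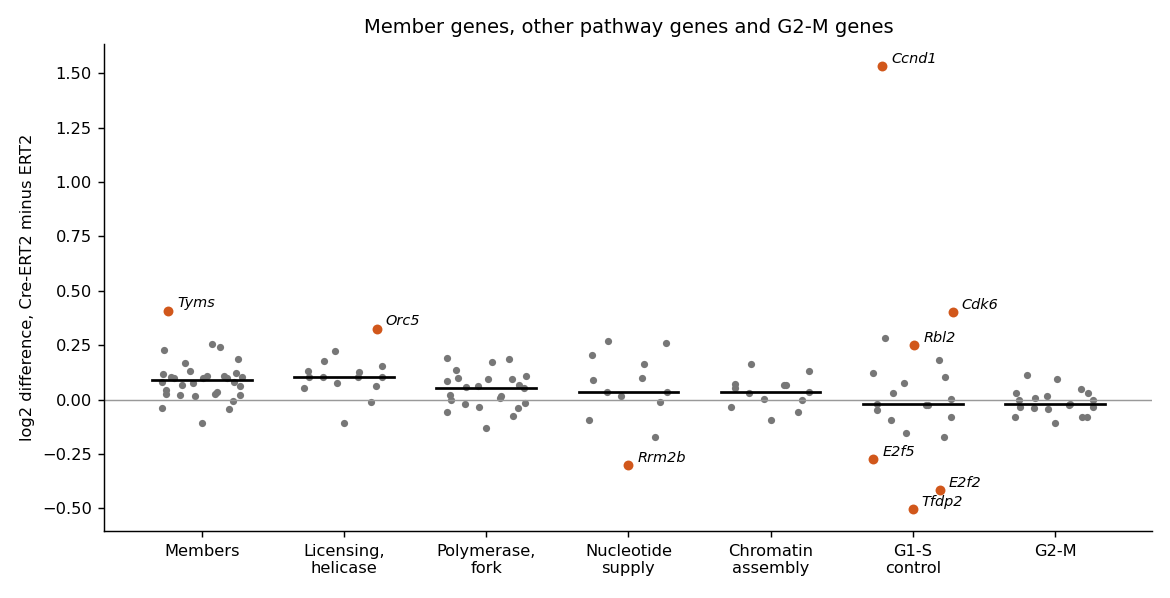
Each point is a gene's log2 difference of Cre-ERT2 minus ERT2, in the 32 genes and in the further pathway lists and the G2-M list. Orange marks genes called at adjusted p under 0.05 and black lines mark medians. Calls stand out for Ccnd1, Cdk6, Tfdp2 and E2f2 in the G1-S control list, while the 32 genes have a median of 0.09.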

How the data were processed

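Total RNA of 6 samples was hybridised to Affymetrix arrays. The authors deposited intensities, 1 for each probe set on each array, made with RMA (background correction, quantile normalization, summary of probes), per the submitters' processing notes. The RMA version and the genome build were not given in the sources used here. Whereas RMA gives log2 values, the deposited intensities are linear (6.27 to 26714), so log2(intensity + 1) was used. Quantile normalization would hide a global shift.

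GEO's platform annotation named 1 gene for 21789 of 35556 probe sets, several for 1621 and none for 12146. Each gene's brightest probe set over the 6 arrays stood for it, and 3 of the 32 genes had several. The fit used limma 3.58.1 in R 4.3.3 on all probe sets, without covariates. It was tested on simulated data with independent probe sets, which hold no deviation shared by the genes of an array. Pcna and Tyms have pseudogenes in the gene table (GRCm38.p6), and where the probes of Tyms, Pcna, Tk1 and Slbp lie was not examined, so cross-hybridisation can enter their values.

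The members and gene lists were chosen with earlier results of these data known. Every array was printed for members called in any setting and for the smallest p and the brightest member of each role; Slbp and E2f1 were added after their values were seen. Other pathway genes were named when called, otherwise the 2 with the smallest p. Replicate numbers were checked, and the correlations could not decide whether they pair the samples. The main fit treated the samples as unpaired. The alternatives were a pseudocount of 16, the brighter probe sets, median centring, cyclic loess, an intensity trend, the replicate number as a block, averaging all probe sets of a gene, and each array left out.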

Additional observations from a re-analysis of the deposited data

How the results depend on the processing

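The number of the 32 genes called higher was 1 in the values reported, 3 among the brighter probe sets, 3 under cyclic loess and 2 with an intensity trend, through Orc1 and Fen1. Over all probe sets tested, those called higher numbered 1143, 1320, 1204 and 1408 in the same order, so calls in general rose too. The 1320 came from a smaller number of probe sets tested. The number of the 32 called higher ran from 1 to 2 when single arrays were left out, and 0 were called lower in all 13 alternatives. The number whose Cre-ERT2 arrays all lay below the controls was 3 under cyclic loess and from 1 to 4 when single arrays were left out. The number with all above was 15 under cyclic loess and from 18 to 22 when single arrays were left out. Fewer arrays make separation easier, and the shares of separated genes over all genes were not computed for these settings. The cause of these changes was not tested. The median difference ran from 0.06 (cyclic loess) to 0.10 (without ERT2 replicate 2). Tyms and Sox4 were called in all 13 alternatives.

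The labels give both groups replicates 1 to 3, and deviations of same-numbered samples correlated with r = 0.205, 0.344 and -0.049. ERT2 replicates 1 and 2 correlated best with their same-numbered samples, but ERT2 replicate 3 with Cre-ERT2 replicate 1 (0.325). With so few samples these values cannot decide whether the numbers mark pairs. With the replicate block 959 probe sets were called higher and 877 lower, against 1143 and 1009 without it and, when single arrays were left out, 606 (without Cre-ERT2 replicate 2) to 1319 higher and 654 (without Cre-ERT2 replicate 3) to 883 lower. The higher count fell by over 1.5 times on omission of any array but ERT2 replicate 2. In the block fit 1 of the 32 genes was called, and Orc5, Rrm2b, E2f5 and Rbl2 were not (adjusted p = 0.0627, 0.0865, 0.0575 and 0.0820).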
